A study of Mus musculus with 4 samples.

Results

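The genes described here are the mouse Hox genes, the homeobox genes of the 4 clusters Hoxa, Hoxb, Hoxc and Hoxd. A spot was counted as a member where the platform annotation gave it a single gene symbol made of the name of a cluster and a number. This found 72 spots for 33 genes, out of 46128 spots and 14386 named genes. There were 10 genes of Hoxa, 7 of Hoxb, 7 of Hoxc and 9 of Hoxd. By paralog number, the position in a cluster shared with the corresponding genes of the other clusters, 9 genes were numbered 1-4, 9 were numbered 5-8 and 15 were numbered 9-13.

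The RNA came from CGR8 cells, an established line of mouse embryonic stem cells, grown as embryoid bodies, which are cell aggregates that differentiate into several lineages. Total RNA of embryoid bodies formed in hanging drops and taken at day 3 or at day 10 was hybridised together with RNA of undifferentiated cells at day 0, on 4 arrays with 2 channels each. The labels name no added agent, and a single line was used. The 2 arrays of a day are technical replicates of 1 RNA pair, so each day is 1 sample, the SD of its arrays measures technical error alone, and no test of a difference was possible. No source used here says which RNA carried which dye or stood above the line of the ratio. Signs are kept as deposited, so a value on the positive or the negative side cannot be read as more RNA in the embryoid bodies or in the day 0 cells. In whole embryoid bodies, fewer cells that use a gene and less RNA per cell cannot be told apart.

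Hox proteins are transcription factors that bind DNA through a homeodomain and give cells their position along the axis from head to tail. Genes at the low-numbered end of a cluster are switched on earlier in the embryo and act in the hindbrain and neck, and genes at the high-numbered end are switched on later and act in the trunk, limbs and tail. In embryonic stem cells the clusters are known to be held silent by Polycomb proteins, and retinoic acid, Wnt and Cdx proteins are known to open them in sequence.

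Few Hox genes stood apart from 0 on both arrays of a day. All values below are log2 ratios after each array was centred on its median, with the spots of a gene averaged. A gene was called where both arrays of a day were at or beyond 2-fold, a log2 ratio of 1, on the same side. At day 3, 1 of the 32 Hox genes with values on both arrays was called, which is Hoxa9 on the negative side, and none was called on the positive side. Among all 13707 genes measured on both arrays, 2.8% were called, 1.03% on the negative and 1.77% on the positive side. At day 10, 1 of 31 was called, which is Hoxc5 on the positive side, against 3.54% of 13199 genes, of which the positive side made up 2.15% and the negative side 1.39%. Between the days, where each of the 4 pairings of arrays from both days had to pass, 1 of 30 was called, which is Hoxa2 on the negative side, against 3.54% of 12654 genes, 1.82% positive and 1.72% negative. The shares of Hox genes called, 3.12%, 3.23% and 3.33%, lay close to those of all genes. With a limit of 1.5-fold, 4, 6 and 2 Hox genes passed in the same order, against 11.7%, 14% and 10.3% of all genes. With a limit of 4-fold none did, against 0.175%, 0.22% and 0.356%.

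**Figure D1:**
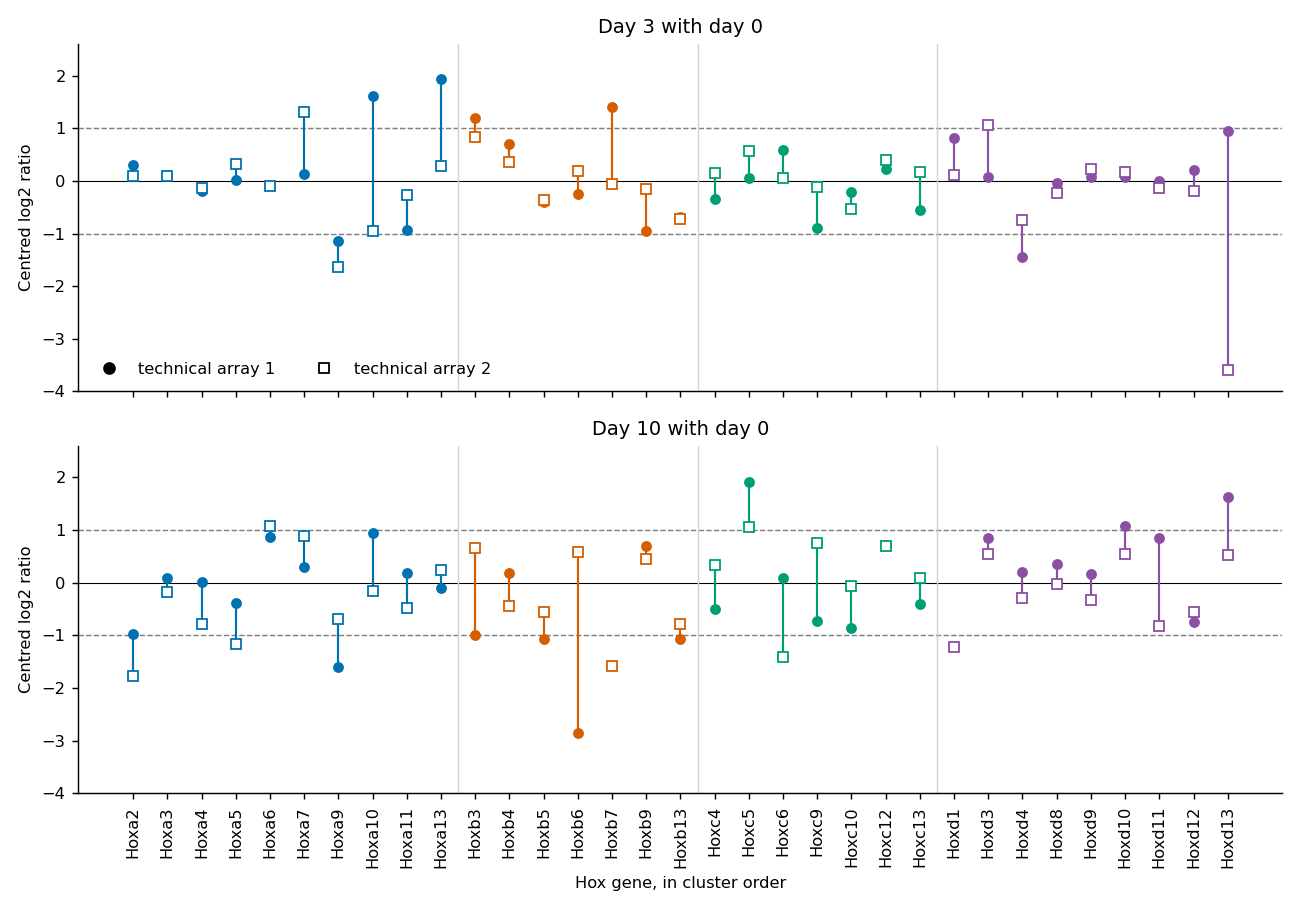
Centred log2 ratio (vertical axis) of each Hox gene (horizontal axis, in cluster order) on technical array 1 (filled circles) and array 2 (open squares), joined by a line, at day 3 (top) and day 10 (bottom). Dashed lines mark the 2-fold limit: both arrays lie beyond it for Hoxa9 at day 3 and for Hoxc5 at day 10.

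The median over the Hox genes was 0.05 at day 3, with 17 genes above and 15 below 0, and the median over all genes was 0.01. At day 10 it was -0.08, with 13 genes above and 18 below 0, against -0.01 over all genes. The Hox genes between the lower and the upper quartile lay between -0.38 and 0.32 at day 3 and between -0.56 and 0.48 at day 10. For all genes these limits were -0.33 and 0.36 at day 3 and -0.38 and 0.40 at day 10. On a single array the Hox median was 0.06 and 0.07 at day 3, but 0.09 and -0.07 at day 10, so its sign at day 10 differed between technical arrays.

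Hoxa9, a gene of the posterior part of its cluster that is also used by blood progenitors, was farthest from 0 on the day 3 arrays among genes whose arrays were on 1 side. It read -1.14 and -1.63 at day 3, a mean of -1.39 ± 0.35 (SD of 2 technical arrays, as for all means of a day below). At day 10 it read -1.60 and -0.69, a mean of -1.14 ± 0.64, with only the first array beyond 2-fold. Both of its spots were negative on every array. They read -1.33 and -0.95, then -1.82 and -1.45 at day 3, and -1.77 and -1.42, then -1.06 and -0.31 at day 10. The lowest reading of the gene, -1.82, was thus on the second day 3 array, and the spot closest to 0 was on the second day 10 array.

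Hoxc5, of the middle part of the Hoxc cluster and active in the neck and upper trunk, read 0.05 and 0.57 at day 3 and 1.91 and 1.06 at day 10. Its day 10 mean was 1.48 ± 0.60. The spots of the gene did not repeat each other. On the second day 3 array, one spot read 2.62 and the other -1.47, and on the first array of each day only 1 spot had a value. Many deposited values are exact logarithms of a ratio of whole numbers, which shows the signals behind them up to a common factor. The reading of 2.62 came from a ratio of 6 to 1, and the reading of -1.47 from a ratio of 64 to 181. At day 10 the 3 readings came from ratios of 2145 to 577, 613 to 275 and 648 to 353, all on the same side. Hoxc5 was in the dimmest 25% of all genes by this measure. Once the trend of the ratios with brightness was removed, Hoxc5 was no longer called at day 10 and Hoxa2 was called in its place.

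Hoxa2, which gives the second pharyngeal arch and parts of the hindbrain their identity, read 0.31 and 0.09 at day 3 and -0.98 and -1.77 at day 10. The days did not overlap, and the difference, day 10 minus day 3, was -1.57 ± 0.58, with its 4 values between -2.08 and -1.06. For every difference between days, ± gives the square root of the sum of the squared SDs of both days. The spots of Hoxa2 disagreed too. On the second day 10 array one read -3.42, from a ratio of 57 to 629, and the other -0.12, from 1011 to 1132. On the first day 10 array they read -0.43 and -1.53. With the spot that differed least between arrays the difference was -0.82, short of the limit, and there Hoxb4 was the 1 gene called. Hoxa2 was also not called when all arrays were given a common spread, where the difference was -1.50.

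The starts of Hoxa9 and Hoxa2, of the called genes, are in the RefSeq promoter table of GRCm38.p6 and are shown because the calls turn on these genes. Each covers 250 bases before and 50 after the annotated start, 5′ to 3′ on the minus strand, with CG dinucleotides in capitals. The Hoxa9 window lies at chr6:52227321-52227620 and the Hoxa2 window at chr6:52164782-52165081.
Hoxa9: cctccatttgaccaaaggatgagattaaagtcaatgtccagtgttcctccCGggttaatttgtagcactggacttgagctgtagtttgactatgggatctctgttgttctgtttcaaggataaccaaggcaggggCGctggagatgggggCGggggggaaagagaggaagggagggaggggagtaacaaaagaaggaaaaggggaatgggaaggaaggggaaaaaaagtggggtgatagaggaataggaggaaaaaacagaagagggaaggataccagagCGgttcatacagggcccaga
Hoxa2: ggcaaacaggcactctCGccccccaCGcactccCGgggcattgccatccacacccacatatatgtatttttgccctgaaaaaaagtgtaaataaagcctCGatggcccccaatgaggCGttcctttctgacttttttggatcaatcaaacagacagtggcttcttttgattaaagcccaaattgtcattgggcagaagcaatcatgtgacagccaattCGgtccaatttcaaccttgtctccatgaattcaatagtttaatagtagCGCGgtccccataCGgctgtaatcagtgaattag
Hoxa9 held 4 CG dinucleotides and Hoxa2 held 9. The 22 promoters found for 20 of the 33 Hox genes had a median of 17.5, and all 32851 promoters a median of 7. The retinoic acid receptor half-site AGGTCA, searched on both strands, was in neither sequence, in 7 of the 22 Hox promoters and in 16.3% of all promoters. TATAAA was in 3 of the 22 and in 13.6% of all, and TTTATG, a core of Cdx sites, in 4 of the 22 and in 11.9% of all. A match is a description of the letters, and the arrays measured no binding.

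Among the genes numbered 1-4, which act in the hindbrain and neck, the median size of the day 3 log2 ratio, regardless of sign, was 0.47 over 9 genes, against 0.34 over all genes. At day 10 this median size was 0.15 over 8 genes, below the 0.39 over all genes. The technical arrays disagreed there, with a median SD of 0.50 in this group against 0.36 over all genes. Hoxa3, Hoxa4, Hoxb3, Hoxb4, Hoxc4 and Hoxd4 had day 10 arrays on opposite sides of 0, which average to a small mean. The small size is therefore not read as less change. Hoxd1 read 0.82 and 0.11 at day 3 and had a value of -1.22 on the second day 10 array alone. Hoxa3, needed for the thymus and parathyroid, read 0.11 and 0.09 at day 3 and 0.08 and -0.18 at day 10. Hoxb3, a hindbrain gene, read 1.19 and 0.83 at day 3 and -0.99 and 0.66 at day 10. Its day 3 mean of 1.01 ± 0.25 had both arrays on the positive side, while its day 10 arrays lay on opposite sides. Hoxd3, which shapes the first neck vertebrae, read 0.07 and 1.05 at day 3 and 0.84 and 0.54 at day 10, on the positive side throughout.

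The paralogs numbered 4 are known for the neck vertebrae, and Hoxb4 also for promoting the growth of blood stem cells. Hoxa4 read -0.19 and -0.13 at day 3 and 0.01 and -0.79 at day 10. Hoxb4 read 0.70 and 0.35 at day 3 and 0.18 and -0.45 at day 10. Hoxc4 read -0.35 and 0.15 at day 3 and -0.51 and 0.34 at day 10. These 3 genes had day 10 arrays on opposite sides of 0, and so did Hoxd4. Hoxd4 read -1.44 and -0.75 at day 3 and 0.20 and -0.28 at day 10. Its day 3 mean of -1.09 ± 0.49 was past the limit while its second array was not, and the difference between days, 1.05 ± 0.60, did not pass on every pair of arrays.

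The genes numbered 5-8 act in the lower neck and the thorax. Hoxa5, needed in the lung, read 0.01 and 0.32 at day 3 and -0.38 and -1.16 at day 10, a difference of -0.94 ± 0.60. Hoxb5 read -0.40 and -0.37 at day 3 and -1.07 and -0.55 at day 10. Its SD at day 3, 0.03, was one of the smallest among the Hox genes, and all of its 8 spot readings were negative. Hoxa6 had a value of -0.10 on the second day 3 array alone and read 0.87 and 1.09 at day 10, a mean of 0.98 ± 0.15 just inside the limit.

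Hoxb6, a marker of lateral mesoderm, read -0.25 and 0.20 at day 3 and -2.86 and 0.59 at day 10. Both day 10 readings rest on 1 spot, the first with a ratio of 19 to 139, and the SD of 2.43 was the largest of any Hox gene at day 10. Hoxc6, a thoracic gene, read 0.59 and 0.06 at day 3 and 0.09 and -1.41 at day 10. Hoxa7 read 0.13 and 1.32 at day 3 and 0.29 and 0.90 at day 10, positive on every array. Hoxb7 read 1.40 and -0.06 at day 3 and had a value of -1.59 on the second day 10 array alone. Its first day 3 array joined spots that read 4.11 and -1.30, so the gene mean there describes neither spot. Hoxd8 read -0.04 and -0.22 at day 3 and 0.36 and -0.02 at day 10.

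The paralogs numbered 9 and 10 act in the lower thorax and the lumbar region. Hoxb9 read -0.95 and -0.15 at day 3 and 0.70 and 0.45 at day 10. All of its spot readings were negative at day 3 and positive at day 10, with a difference of 1.12 ± 0.60. Hoxc9 read -0.89 and -0.11 at day 3 and -0.73 and 0.75 at day 10. Hoxd9 read 0.07 and 0.22 at day 3 and 0.16 and -0.33 at day 10. Unlike Hoxa9, none of these 3 paralogs was beyond 2-fold on any array. Hoxa10, which patterns the lumbar vertebrae and the uterus, read 1.62 and -0.95 at day 3 and 0.94 and -0.15 at day 10, on opposite sides at both days. Hoxc10 read -0.21 and -0.54 at day 3 and -0.86 and -0.07 at day 10. Hoxd10 read 0.07 and 0.16 at day 3 and 1.08 and 0.55 at day 10, a day 10 mean of 0.81 ± 0.38.

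The genes numbered 11 to 13 close the clusters and act in the sacrum, the tail, the limbs and the urogenital tract. Hoxa11, needed in the kidney and forelimb, read -0.93 and -0.28 at day 3 and 0.19 and -0.48 at day 10. Hoxd11, its partner there, read 0.00 and -0.13 at day 3 and 0.85 and -0.83 at day 10. Hoxc12 read 0.22 and 0.40 at day 3 and 0.71 and 0.69 at day 10, where its SD of 0.02 was the smallest of the Hox genes. Hoxd12 read 0.20 and -0.19 at day 3 and -0.75 and -0.55 at day 10. The paralogs 12 thus lay on opposite sides at day 10, both short of the limit.

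Hoxb13, known for its part in the prostate and the tail tip, read -0.68 and -0.73 at day 3 and -1.07 and -0.79 at day 10. Its 8 spot readings lay between -1.30 and -0.55, and no other Hox gene with values on all arrays kept every spot so far on 1 side of 0. Hoxa13, a limb and genital gene, read 1.93 and 0.28 at day 3 and -0.10 and 0.23 at day 10. Hoxc13, a hair follicle gene, read -0.56 and 0.16 at day 3 and -0.40 and 0.08 at day 10. Hoxd13, a digit gene, read 0.94 and -3.59 at day 3 and 1.63 and 0.53 at day 10. Its day 3 SD of 3.21 was the largest of any Hox gene, and the reading of -3.59 came from 1 spot with a ratio of 3 to 37. At day 10 each array had a value from a different spot. The 4 paralogs numbered 13 thus spread over both sides, and Hoxb13 alone was on the negative side on every array.

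**Figure D2:**
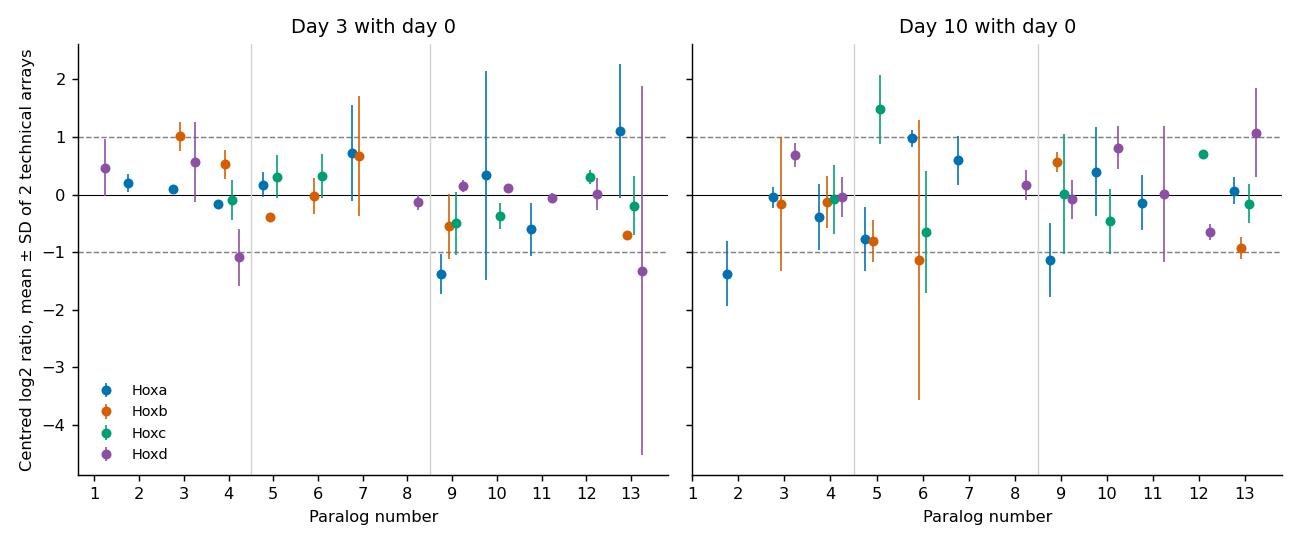
Mean centred log2 ratio of each Hox gene (points, coloured by cluster, with the SD of 2 technical arrays as error bars) against its paralog number, at day 3 (left) and day 10 (right). Grey vertical lines part the numbers 1-4, 5-8 and 9-13, whose medians were 0.20, 0.24 and -0.20 at day 3 and -0.11, -0.24 and 0.01 at day 10.

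By paralog number, the day 3 medians were 0.20 over 9 genes numbered 1-4, 0.24 over 8 numbered 5-8 and -0.20 over 15 numbered 9-13. At day 10 they were -0.11 over 8 genes, -0.24 over 8 and 0.01 over 15. The day 10 medians of the groups were not stable. Over the single arrays the genes numbered 5-8 had medians of 0.19 and 0.28, both positive, while the median of their means was negative. Those numbered 1-4 had 0.05 and -0.23, and those numbered 9-13 had 0.16 and -0.07. The day 10 median of the genes numbered 9-13 took the other sign in 8 of 11 alternatives, between -0.20 and 0.16, so no order of the groups is read from day 10. The genes within a group spread much more widely than the medians of the groups: those numbered 9-13 ran from -1.39 to 1.11 at day 3 and from -1.14 to 1.08 at day 10. For the genes numbered 9-13 the first and second day 3 array gave medians of 0.00 and -0.15, and leaving out the dimmest 25% of genes moved the median to -0.44 over 10 genes. For those numbered 5-8, the dimmest genes left out, the day 3 median was -0.03 over 5 genes and the day 10 median -0.79 over 4. The group differences were not tested.

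By cluster, the day 3 medians were 0.17 for Hoxa over 9 genes, -0.03 for Hoxb over 7, -0.10 for Hoxc over 7 and 0.01 for Hoxd over 9. At day 10 they were -0.10 for Hoxa over 10 genes, -0.49 for Hoxb over 6, -0.08 for Hoxc over 7 and 0.09 for Hoxd over 8. Hoxb was the cluster farthest from 0 at day 10, with 5 of its 6 genes below 0, but its medians were -1.03 on the first array and 0.00 on the second. The other clusters also changed sign between the day 10 arrays, with 0.05 and -0.33 for Hoxa, -0.40 and 0.34 for Hoxc and 0.60 and -0.15 for Hoxd. At day 3, Hoxc changed sign with -0.21 and 0.15 and Hoxd with 0.07 and -0.13.

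All spots of a gene on 1 side was also counted, a rule chosen after the values were seen, for genes with at least 4 spot readings at a day. At day 3, Hoxa9, Hoxa11, Hoxb5, Hoxb9, Hoxb13 and Hoxd4 were negative in every reading, 6 of 24 genes or 25%, against 19.6% of all such genes. Hoxb3 and Hoxb4 were positive in every reading, 2 of 24 or 8.33%, against 17.6%. At day 10, Hoxa2, Hoxa9, Hoxb5, Hoxb13 and Hoxd12 were negative in every reading, 5 of 17 or 29.4%, against 19% of all such genes. Hoxb9 and Hoxc12 were positive in every reading, 2 of 17 or 11.8%, against 13.5%. The 2 days share the day 0 RNA. Both arrays of day 3 lay on the positive side for 14 Hox genes and on the negative side for 10, of 32, against 32.9% and 31.8% of all genes. At day 10 these counts were 8 and 7 of 31, against 30% and 30.8%.

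**Figure D3:**
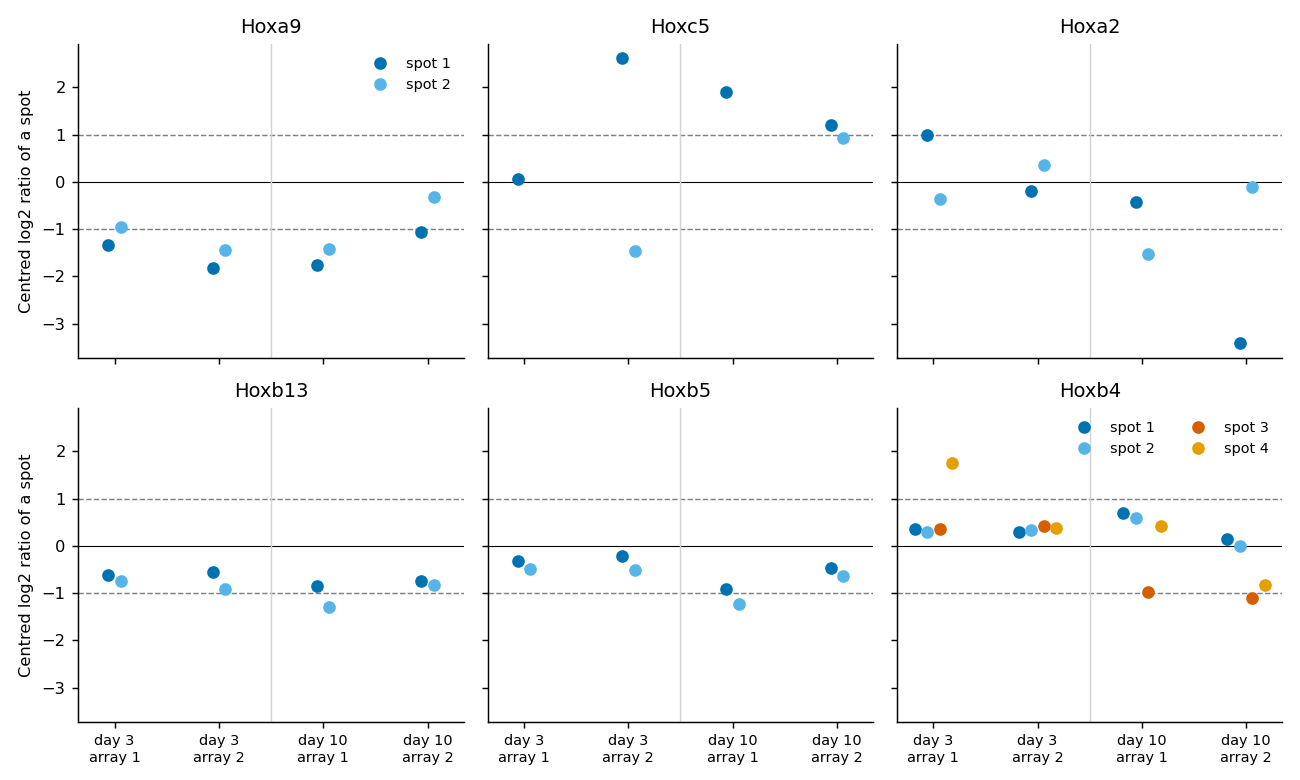
Centred log2 ratio of every spot (points, coloured by spot) of 6 Hox genes on the 2 day 3 and the 2 day 10 arrays; dashed lines mark the 2-fold limit and missing points are spots with no value. All readings of Hoxa9, Hoxb13 and Hoxb5 are below 0, while the spots of Hoxc5, Hoxa2 and Hoxb4 part on at least 1 array.

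Each Hox gene had 2 neighbouring spots of 1 sequence record, except Hoxa3, Hoxb3 and Hoxb4, which had 4 spots of 2 records. For Hoxb4 the records disagreed at day 10. On the arrays of that day the spots of the first averaged 0.64 and 0.07, a mean of 0.36 ± 0.40. Those of the other averaged -0.27 and -0.97, a mean of -0.62 ± 0.49. On the first day 10 array the spots of the other record read -0.97 and 0.42, so they also parted within the record. At day 3 both records were positive, at 0.32 ± 0.02 and 0.73 ± 0.47. For Hoxb3 at day 3, one record read 1.44 and 1.11 and the other 0.68 and 0.27, all positive. At day 10 they read -1.62 and -0.37 on the first array, and the former had no value on the second. The records of Hoxa3 gave -0.08 ± 0.18 and 0.29 ± 0.21 at day 3 and -0.08 ± 0.24 and -0.02 ± 0.13 at day 10. The probe sequences were not used here, so whether a spot can bind RNA of another Hox gene was not tested.

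Technical error was large beside these ratios. Of the 288 Hox readings, 13.2% were missing, against 12.9% of the readings of all named spots. For Hox genes, neighbouring spots of 1 record differed by a median of 0.66 and 0.51 at day 3 and 0.44 and 0.46 at day 10. The 4 medians for all genes, in the same order of arrays, were 0.35, 0.33, 0.54 and 0.42. The SD of the technical arrays had a median of 0.33 at day 3 and 0.45 at day 10 for Hox genes, against 0.28 and 0.36 for all genes. Across the Hox genes, the arrays of a day correlated with a Pearson r of 0.0759 at day 3 (Spearman rho 0.353, 32 genes) and 0.305 at day 10 (rho 0.365, 31 genes). Over all genes r was 0.271 and 0.215. Genes are not independent replicates, and the points share arrays and background. Exactly 1 of the 2 arrays was beyond 2-fold for 8 Hox genes at day 3 and 10 at day 10, against 19.7% and 26% of all genes. No Hox gene was beyond 2-fold on opposite sides, against 0.744% and 1.48% of all genes.

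The whole numbers behind the deposited ratios give a lower bound on how bright a spot was. A ratio of whole numbers up to 10000 was found for 62.4% of the 250 Hox readings, and for between 59.3% and 62.0% of the readings of an array. For Hoxa9, Hoxb5 and Hoxb13 none of the 8 readings was such a ratio, so their numbers were larger or not whole, and they count as bright. For 12 Hox genes every reading was such a ratio, and 18 had a reading with a whole number under 100. These counts were not made over all genes, and a small number may come from larger signals with a common factor. By the resulting order of brightness, 10 Hox genes lay in the dimmest 25% of all genes, 6 and 9 in the next bands of that size and 8 in the brightest, where the order among the brightest has no meaning. At day 3, the median SD between arrays was 0.37 in the 15 dimmer Hox genes and 0.22 in the 17 brighter ones, and 7 and 2 of them had an array beyond 2-fold, or 46.7% and 11.8%. For all genes in the same brightness classes the SDs were 0.44 and 0.19 and the shares 32.4% and 14.4%. At day 10 the medians were 0.56 over 14 genes and 0.38 over 17, and 6 and 5 genes had such an array, or 42.9% and 29.4%. For all genes the SDs were 0.53 and 0.26 and the shares 41.6% and 21.6%.

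**Figure D4:**
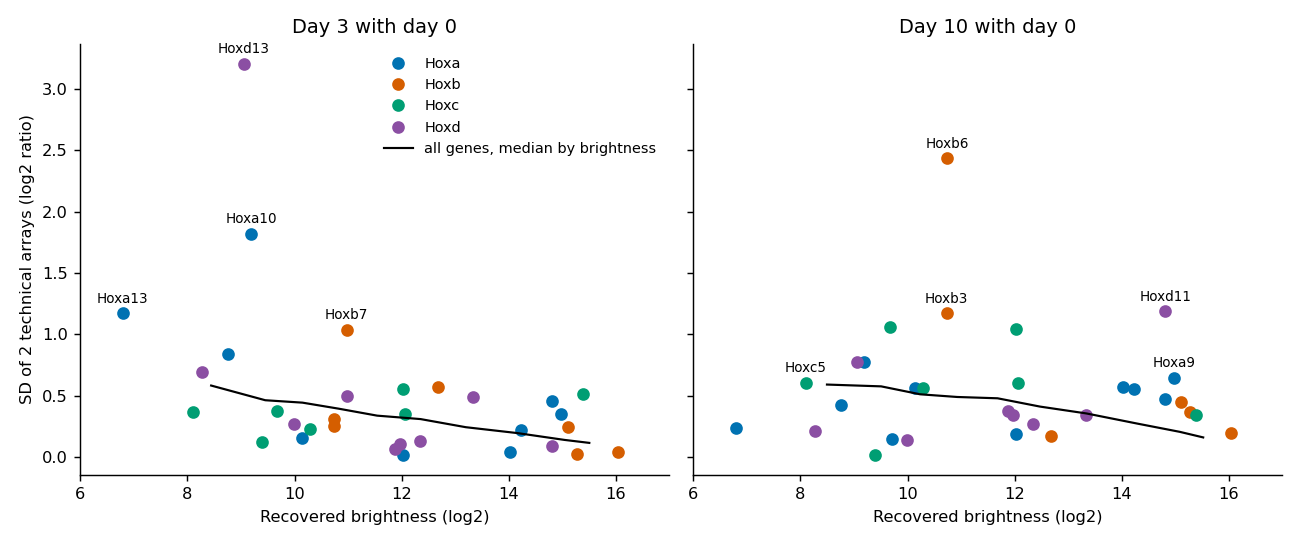
SD of the 2 technical arrays of each Hox gene (points, coloured by cluster) against recovered brightness, the log2 geometric mean of the whole numbers behind its ratios, at day 3 (left) and day 10 (right). The line joins the medians of all genes in bands of rising brightness; Hoxd13 at day 3 (3.21) and Hoxb6 at day 10 (2.43) have the largest SD.

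Genes known to act with or upstream of the clusters were set beside them, from lists chosen with earlier results of these data known. Over all genes, 2.8% were called at day 3, 3.54% at day 10 and 3.54% between the days. A single call in a list of this size is therefore not read as a result about the list. Of the TALE homeodomain cofactors, which bind DNA together with Hox proteins, 7 of 11 were measured at day 3 and none was called at either day. Their median was -0.45 at day 3 and 0.06 at day 10, with Meis1 at -0.27 ± 0.26 and -0.40 ± 0.89. Of 13 upstream activators measured at day 3, none was called at day 3 or day 10, and the median was 0.26 and 0.01. The Cdx genes of that list, which bind Hox regulatory regions, had day 3 readings of -0.18 and 1.23 for Cdx1, 0.43 and 0.60 for Cdx2, and 1.01 and 0.49 for Cdx4, of which only those of Cdx1 lay on opposite sides. Cdx1 and Cdx4 were in the dimmest 25% of genes. At day 10, Cdx2 read -0.12 and -0.03, and Cdx1 and Cdx4 were not measured on both arrays. Fgf4, a growth factor of that list that embryonic stem cells secrete, was called between the days at 1.60 ± 0.41. It was in the dimmest 25% of genes.

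Of 14 retinoic acid pathway genes, 1 was called at each day, against 2.8% and 3.54% of all genes. It was Crabp2, on the negative side, which carries retinoic acid to its receptors, with -1.40 and -1.04 at day 3 and -1.71 and -1.22 at day 10, the same side on every array. Crabp1, its relative, was called between the days at -1.71 ± 0.95. Of the Polycomb genes, 26 were measured at day 3 with a median of -0.14 and none called, and 25 at day 10 with a median of -0.43 and 1 called. The called gene was Pcgf1, a subunit of a variant Polycomb complex, with 3.64 and 3.71 at day 10. It was in the dimmest 25% of genes. The histone methyltransferases of the list lay on opposite sides at day 10, Ezh2 at 0.57 ± 0.06 and Ezh1 at -0.93 ± 0.21. Of 10 trithorax group and demethylase genes, which counter Polycomb, none was called at either day, and the medians were 0.13 and 0.07.

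Of the other homeobox genes, 33 were measured at day 3 with none called, and 31 at day 10 with 1 called on each side. The shares called over all genes were 2.8% and 3.54%. Nkx6-1, a gene of the ventral neural tube and the pancreas, read 2.47 and 2.95 at day 10. Pdx1, a pancreatic gene related to the Hox genes, read -1.16 and -1.39 and was in the dimmest 25% of genes. The medians of this list were -0.04 and -0.15.

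Other transcripts named after the clusters were measured by spots outside the rule. Hoxaas2 read 1.24 and 1.36 at day 3, both beyond 2-fold, and -0.42 and 0.35 at day 10. Hoxa11os, an antisense transcript of Hoxa11, read -0.28 and -0.69 at day 3 and -0.43 and -1.03 at day 10, on the same side as Hoxa11 at day 3. Hoxaas3 read -1.17 and 0.14 at day 3 and -1.93 and 1.21 at day 10, on opposite sides at both. Hoxd3os1 stayed between -0.08 and 0.42. No source used here says whether the spots tell the strands apart, so a gene and its antisense partner may share signal.

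Markers of the cells that could be present were read on the same arrays, where 2.8% of all genes were called at day 3 and 3.54% at day 10. Of 11 markers of undifferentiated cells measured at day 3, Dppa5a was called at -2.71 ± 0.04 and the list ran from -2.71 to -0.02, with a median of -0.41. At day 10 none of 10 was called, and the list ran from -1.39 to 1.25 with a median of -0.46. The Dppa5a arrays parted there, at 0.41 and -2.85. Of the primitive streak and mesoderm markers, 1 of 9 was called at day 3, Mesp1 at 1.97 ± 0.10. Mesp1 was in the dimmest 25% of genes. The list ran from -0.61 to 1.97 with a median of 0.08. At day 10 Mesp1 was not measured on both arrays, and none of the other 8 was called, with a median of 0.16. Neural and hindbrain markers had medians of 0.18 and 0.52 and none called. Visceral endoderm markers had -0.19 and 0.26, with 1 called at day 3, Apob at 1.29 ± 0.35. Apob was also in the dimmest 25% of genes. Fibroblast and feeder markers had medians of 0.09 and -0.22 with none called. The part of these cell types in the Hox values was not tested.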

How the data were processed

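Total RNA of day 3 or day 10 embryoid bodies was put with day 0 RNA on 4 arrays of 2 channels, per the labels. Each spot of each array has 1 deposited value, read here as a log2 ratio, since many values are exact base 2 logarithms of ratios of whole numbers. No source used here gives the scanner, the dyes, the background treatment or any normalization by the authors, and a dye bias may remain. Deposited medians were -0.03, -0.03, -0.01 and -0.04. Arrays of different days correlated with r between 0.0974 and 0.126 over all spots. They share the day 0 RNA and the spots, so these values do not settle the direction of the ratio.

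Spots were named by the platform annotation, and lookup by Entrez ID in the table of GRCm38.p6 changed 0 symbols. There were 32544 spots with 1 symbol, 588 with several and 12996 unnamed. From the spots with 1 symbol, 480 were left out as controls: 5 records spotted 96 times each, whose gene IDs are not in the mouse gene table. Each array was centred on its median and the spots of a gene averaged. The small number of arrays limits precision. With 1 RNA pair a day no test was run. The members and lists were chosen with earlier results of these data known. Every Hox gene is named, and of the other lists the called genes. Meis1, the Cdx genes, Ezh1, Ezh2 and the transcripts outside the rule were chosen after seeing their values.

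Brightness was recovered from the smallest pair of whole numbers that gives a deposited value to 9 decimals, as the log2 of their geometric mean. Where none up to 10000 does, larger numbers are taken and the order is arbitrary. The steps were tested on simulated data. Alternatives were no centring, a common spread, a limit of 1.5-fold or of 4-fold, a limit on only the mean, other ways to join spots, genes with values on all 4 arrays, the dimmest 25% left out, the brightness trend removed in 50 bins, and each array left out. Python 3.11.15, numpy 2.4.6, pandas 2.3.3 and matplotlib 3.10.9 were used.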

Additional observations from a re-analysis of the deposited data

Results flagged for a closer look

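Hoxa2, Hoxa5 and Hoxb9 had both arrays of day 3 on one side of 0 and both arrays of day 10 on the other. The difference, day 10 minus day 3, was -1.57 for Hoxa2, -0.94 for Hoxa5 and 1.12 for Hoxb9. The difference was not tested, since each day is 1 RNA pair. The spots of Hoxb9 were all on the side of their gene at both days. Those of Hoxa2 at day 3 and of Hoxa5 at both days were not, with Hoxa5 spots at 0.21 and -0.18 on the first day 3 array and 1 of them at 0.24 on the first day 10 array.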

How the results depend on the processing

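The number of Hox genes called was 1 in each comparison and moved with most choices of limit. With a limit of 1.5-fold it was 4 at day 3 (Hoxa9, Hoxb13, Hoxb3, Hoxd4), 6 at day 10 and 2 between the days, and with 4-fold 0 in each. With the limit on the mean alone it was 5, 5 and 8, against 7.97%, 10.6% and 16.2% of all genes. With every spot on its own it was 2 spots at day 3 and 2 at day 10, against 3.81% and 4.86% of all spots, and with the least variable spot of a gene 2 at day 10, against 5.9% of all genes. With the dimmest 25% left out it was 0 at day 10, since Hoxc5 is among them, and with a common spread 0 between the days. Some settings kept the count at 1 but not the gene: with the brightness trend removed the day 10 call was Hoxa2, and with the least variable spot or every spot on its own the call between the days was Hoxb4. With only the spots that have values on every array, chosen after the data were examined, it was 2 at day 3 (Hoxa9 and Hoxb3), against 3.07% of all genes, and the median difference between the days was -0.21. With 1 array left out, so that fewer arrays had to pass, it was 4 to 6 at day 3, 7 at day 10 either way and 2 to 5 between the days. The calls among all genes grew too, to 12.8% and 14.4% at day 3, 16.2% and 20.4% at day 10 and 10% to 15.4% between the days. The rule asks every array to pass, so a called gene stays called when an array is left out. This held for Hoxa9, Hoxc5 and Hoxa2 and is no check of those calls.

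The median over the Hox genes was 0.05 at day 3, -0.08 at day 10 and -0.04 between the days. At day 3 it was 0.025 with no centring, 0.00439 with the spot median, 0.033 both with the least variable spot and with every spot on its own, -0.010 in genes with values on all 4 arrays and -0.099 without the dimmest 25%. At day 10 it was -0.21 with the least variable spot, -0.18 with every spot on its own and -0.14 without the dimmest 25%. Between the days it was -0.16 with the least variable spot, -0.18 with every spot on its own, -0.092 without the dimmest 25%, -0.074 with the brightness trend removed and -0.0028 with a common spread. Leaving out an array gave 0.06 in both cases at day 3, -0.15 and 0.094 at day 10, and from -0.21 to -0.052 between the days. Of 941 recomputed values of single genes 892 moved by less than their technical SD, and 75 changed sign, none of them of a called value. Much of this was fixed in advance, so the count of 892 is no measure of stability. Leaving out an array always moves a mean by less than its SD and cannot turn the sign of a called value. Keeping only genes with values on all 4 arrays, or leaving out the dimmest 25%, does not change the value of a gene. The spot median equals the spot mean except for Hoxa3, Hoxb3 and Hoxb4. The cause of the changes in medians and single values was not tested where the choice itself does not show it. No paired analysis was possible because the labels give the arrays no replicate numbers and no test was run.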
